A study of Mus musculus with 5 samples.

Results

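The Ly6c2-high monocytes described here are 263 of 13823 kept cells from 4 mouse kidney single-cell libraries. They were chosen by their own counts: at least 5 unique molecular identifiers (UMIs) of Ly6c2 plus Plac8 with at least 1 of Ly6c2, at least 2 of Tyrobp, and fewer of the 3 C1q chains together than of Ly6c2 plus Plac8. Further clauses left out cells with any UMI of genes that include Cd209a, Xcr1 and Cd3e, with more than 1 of Mmp12, or with 2 or more of Retnlg plus Cxcr2, and cells under 200 genes or over 50% mitochondrial UMIs were not kept. The values of those genes are therefore a description of how the members were selected and carry no finding. All animals were C57/BL6 mice aged 8 weeks, and no transgene is named in the labels. The 4 groups were sham surgery (day 0), unilateral ureteric obstruction (UUO) at day 2, UUO at day 7, and UUO that had been reversed and then left for 7 days (experimental day 14). Every library pooled kidneys of 3 mice that were digested on ice and sorted for live cells, and each group had 1 library. No difference between groups can therefore be tested, library and group cannot be told apart, and every interval below is a 95% interval for counting error only.

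Ly6C-high monocytes are short-lived cells that leave the bone marrow in a Ccr2-dependent way and enter injured tissue, where they can become macrophages or cells that present antigen. Ly6c2 encodes a small surface protein of the Ly6 family, Plac8 a cysteine-rich protein of white cells, and Tyrobp a signalling adaptor of myeloid and natural killer cells. Ly6c2 lies at chr15:75108158-75111970 on the minus strand of GRCm38, near the closely related Ly6c1 at chr15:75044018-75048830, which is abundant in endothelium. Reads from the near-identical copies could have been split between them. At 2000 UMIs per cell, 3.33% of day 2 members, 9.42% of day 7 members and 23.3% of reversed members had a Ly6c1 UMI, against 82.1% to 89.6% of endothelial cells and 5.17% to 10.2% of T cells in the same libraries. Without thinning the member shares were 11.1%, 28.3% and 33.3%.

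The members numbered 5 in sham, 90 at day 2, 138 at day 7 and 30 after reversal. They made up 0.127% of kept sham cells (0.0413 to 0.296), 4.08% at day 2 (3.29 to 4.99), 3.10% at day 7 (2.61 to 3.66) and 0.927% after reversal (0.626 to 1.32). The day 2 and day 7 intervals overlapped, and both lay above those of sham and reversed kidneys. With a mitochondrial limit of 20% in place of 50%, the shares were 0.772% (0.251 to 1.79), 5.94% (4.80 to 7.25), 3.30% (2.78 to 3.89) and 1.40% (0.939 to 2.00). Day 2 then lay above day 7, and the sham and reversed intervals overlapped, among 648, 1515, 4182 and 2072 kept cells. Among cells with at least 2 Tyrobp UMIs the order was different. The share there was 6.85% in sham (2.26 to 15.3), 11.1% at day 2 (9.05 to 13.5), 4.08% at day 7 (3.44 to 4.80) and 3.18% after reversal (2.15 to 4.51). Day 2 stood above day 7 and reversal, the latter pair overlapped, and the 5 sham members left an interval that overlapped all others. Of kept cells, 1.86% in sham, 36.6% at day 2, 76.1% at day 7 and 29.2% after reversal were Tyrobp-positive. Members carried a median of 4505, 7925.5, 6383.5 and 6203 UMIs, in total 26188, 759397, 879412 and 184042. Shared cell barcodes between library pairs numbered 16 to 39, and 0 of them belonged to members.

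**Figure D1:**
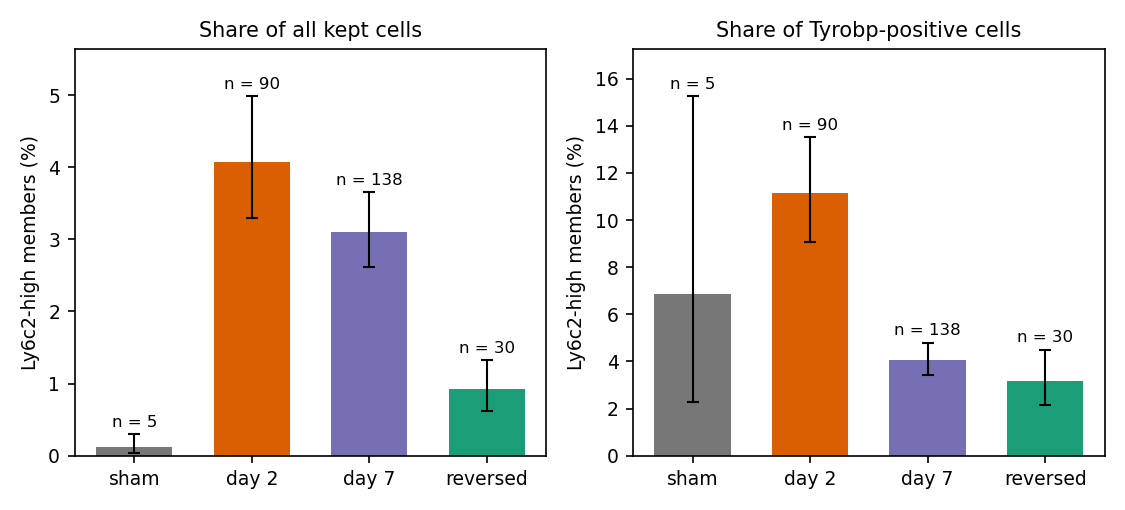
Percentage of kept cells (left) and of Tyrobp-positive cells (right) that were Ly6c2-high members, per library. Bars start at 0, error bars are exact 95% Clopper-Pearson intervals for counting error, n is the number of members, and day 2 has the highest bar in both panels.

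The clauses that left cells out acted unequally. Of the cells with the required Ly6c2, Plac8 and Tyrobp counts, 83.3% in sham, 68.7% at day 2, 44.8% at day 7 and 50.8% after reversal became members. At day 7 the C1q clause left out 87 of 308 such cells and Cd209a, a lectin of dendritic cells, left out 64. Few cells lay near the count threshold. There were 14 members with 5 or 6 UMIs of Ly6c2 plus Plac8 and 13 cells just outside with 3 or 4, while 161 members had 30 or more. The median Lyz2 count was 3.5 just inside and 3 just outside, against 189 in members with 30 or more.

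Lyz2, the lysozyme gene of monocytes, macrophages and granulocytes, was not used by the rule and separated the members into 2 sets. It was at 0 to 11 UMIs in 37 members and at 18 to 495 in the other 226, with no member between. The low set held 2 of 5 sham, 5 of 90 day 2, 26 of 138 day 7 and 4 of 30 reversed members. Of these 37 cells, 34 had at least 3 UMIs of a marker list for another cell type: 15 of the T and natural killer list, 14 of the dendritic list, 5 of the endothelial list and 3 of the stromal list. Siglech, a receptor of plasmacytoid dendritic cells, had at least 2 UMIs in 11 of them. The label monocyte goes with Lyz2 in 226 members and goes against it in the other 37. Values below are for all 263 members. Beside several of them stand values for the 226 cells with at least 15 Lyz2 UMIs, or for the 204 of these with fewer than 3 UMIs of each of the 4 lists, both sets chosen after the data had been seen.

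**Figure D2:**
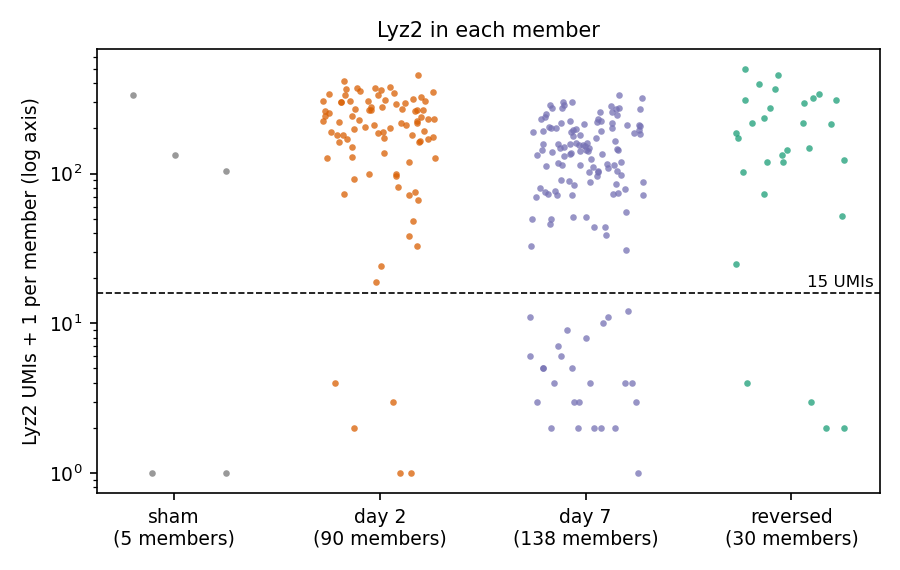
Lyz2 UMIs plus 1 in each member on a log axis, by library; points are cells, spread sideways at random. The dashed line marks 15 UMIs, and the gap between 11 and 18 UMIs separates 37 members below from 226 above.

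RNA of other cell types was present in the members in amounts that differed between libraries, and its part in each result was not tested. The summed level of 6 stromal genes was 0, 14.5, 1144 and 65.2 counts per 1000000 UMIs (CPM) in the order sham, day 2, day 7 and reversed. A single day 7 member held 483 of the 1006 stromal UMIs, and all 6 genes, Col1a1, Col1a2, Col3a1, Pdgfrb, Dcn and Acta2, were at 0 in sham. The endothelial list summed to 38.2, 51.4, 264 and 668 CPM and the dendritic list to 305, 40.8, 123 and 32.6 CPM. The 7 genes of the proximal tubule list summed to 5117, 1925, 523 and 3439 CPM. Red cell and platelet genes were at 0, 39.5, 324 and 228 CPM, the T and natural killer list at 38.2, 238, 378 and 342 CPM, and the B cell list at 802, 165, 375 and 446 CPM. Of the neutrophil list, Ly6g was at 0 in all 4 libraries, and its sum was 38.2, 421, 655 and 1619 CPM.

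Against the other Tyrobp-positive cells of the same library, the genes that marked the members most in all 3 of the larger libraries included Hp, Prtn3, Gm9733, Chil3, F13a1, Mmp8, Vcan, Ifitm6, F10, Ms4a4c, AI839979, Xdh, Sirpb1c and Sirpb1b. Since the cells were selected on counts from the same libraries, these differences are a description. Hp, which encodes haptoglobin, a haemoglobin-binding plasma protein, was at 769, 681 and 859 CPM in members of day 2, day 7 and reversed kidneys. In the other Tyrobp-positive cells it was at 56.5, 39.6 and 18.3 CPM, so that the smallest log2 difference was 3.74. Chil3, a chitinase-like protein of myeloid cells (chr3:106147554-106167564, minus strand), was at 2597, 1003 and 1603 CPM against 277, 19.3 and 15.8 CPM. Prtn3, a serine protease of azurophil granules, was at 96.1, 68.2 and 54.3 CPM, against at most 4.64 CPM in the other cells. Gm9733, Sirpb1b and Sirpb1c belong to a family of similar copies, so their counts are uncertain. Cells that should lack a gene can carry its free RNA, so shares of cells with a UMI were taken at equal depth beside T cells and endothelial cells. Chil3 was seen in 57.8% of members at day 2 (46.9 to 68.1), 45.7% at day 7 (37.2 to 54.3) and 70% after reversal (50.6 to 85.3) once cells were thinned to 2000 UMIs. The corresponding T cells showed 5.17%, 1.96% and 0%, and endothelial cells 1.89%, 1.38% and 0%, where the exact intervals for 0 of 118 T cells and 0 of 250 endothelial cells reach 3.08% and 1.46%. Without thinning the member shares were 64.4%, 55.1% and 76.7%.

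**Figure D3:**
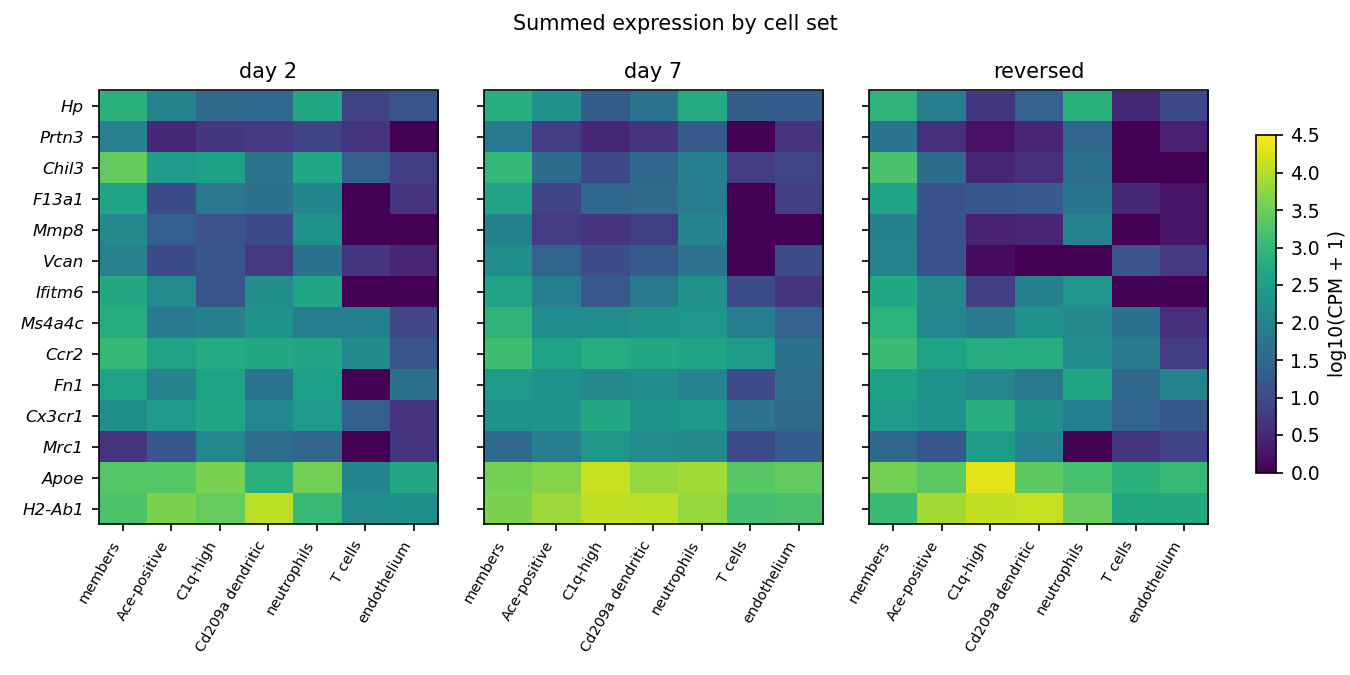
Summed expression, log10(CPM + 1), of monocyte, macrophage and MHC class II genes (rows) in Ly6c2-high members and 6 other cell sets (columns) of the day 2, day 7 and reversed libraries. Chil3, F13a1 and Vcan are brightest in members in all 3 libraries, Hp is shared with neutrophils, and Apoe and H2-Ab1 are brightest in other myeloid sets.

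The 5 sham members were too few for a ratio and are given as counts. Of their 26188 UMIs, 571 were Lyz2 (525 to 620) and 31 were Ccr2 (21.1 to 44.0), the receptor that draws monocytes out of the marrow. Hp had 42 UMIs (30.3 to 56.8), 33 of them in 1 cell, Ms4a4c 23 (14.6 to 34.5), F13a1 10 (4.80 to 18.4), Chil3 8 (3.45 to 15.8) and Vcan 2 (0.242 to 7.22). Ccl2 and S100a8 were at 0, which in so small a sum does not show that they were absent.

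Between the larger libraries, ratios of summed CPM set day 7 beside day 2, and reversal beside day 7, both with 1 CPM added, which understates changes of low genes. The comparisons share the day 7 library. Of 5490 genes with at least 30 UMIs in the pair, 493 (8.98%) were at least 2-fold higher and 114 (2.08%) at least 2-fold lower at day 7 than at day 2, with a median log2 ratio of 0.12 over all of them. Of 4408 genes, 157 (3.56%) were at least 2-fold higher and 289 (6.56%) lower after reversal than at day 7, with a median of -0.03. Scaling by trimmed means of M values (TMM) moved all log2 ratios by -0.16 in the former comparison and -0.10 in the latter, which gave 360 higher and 177 lower genes, and 120 higher and 360 lower genes. In the 204 cells without other lists, 246 genes were higher and 105 lower at day 7, and 99 were higher and 213 lower after reversal.

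Of 18 genes of monocyte identity, 0 were 2-fold higher and 1, Chil3, was 2-fold lower at day 7 than at day 2, against 8.98% higher and 2.08% lower over all genes compared, with a list median of -0.17 that became 0.06 in the 204 cells without other lists. After reversal, 0 of 18 passed 2-fold in either direction, against 3.56% higher and 6.56% lower over all genes, and the median was 0.05, or -0.05 with TMM scaling. With equal weight per cell, after thinning to 2000 UMIs and in the cells without other lists, 1 gene each was 2-fold lower. Ccr2 was at 1184, 1018, 1310 and 1212 CPM in the order sham, day 2, day 7 and reversed. F13a1, the A chain of coagulation factor XIII, was at 382, 432, 392 and 429 CPM. Ms4a4c, a membrane-spanning protein of monocytes, was at 878, 639, 841 and 810 CPM. Vcan, a large matrix proteoglycan, was at 97.4, 161 and 103 CPM from day 2 on. For Chil3, the level at day 7 stood at a log2 ratio of -1.37 to day 2 (-1.49 to -1.26) and its level after reversal at 0.68 to day 7 (0.48 to 0.87). Per member, the median Chil3 count was 10.5 at day 2, 1.5 at day 7 and 4 after reversal, and 35.6%, 44.9% and 23.3% of members had none. The highest single members held 136, 50 and 43 Chil3 UMIs, so that a broad range within each library lay behind the sums.

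MHC class II genes encode proteins that display peptides from outside the cell to helper T cells. All 7 members of the list were higher at day 7 than at day 2, 4 of them at least 2-fold, against 8.98% of all genes compared, and the list median was 1.06. H2-DMb1, a chain of the peptide-loading chaperone, stood at 0.06 (-0.16 to 0.28), and at -0.10 with TMM scaling, so that 6 of 7 were then higher. The count of 4 was 3 with TMM scaling, with 10 CPM added and after thinning. After reversal all 7 were lower than at day 7, 6 of them at least 2-fold, against 6.56% of all genes, with a median of -1.40. H2-Ab1, a beta chain (chr17:34257689-34269419), was at 1107 CPM in sham, 1696 at day 2, 4119 at day 7 and 1146 after reversal. Its log2 ratio was 1.28 (1.19 to 1.37) for day 7 against day 2 and -1.84 (-2.05 to -1.64) for reversal against day 7. H2-Aa, an alpha chain, was at 1313, 3433 and 869 CPM and H2-Eb1, another beta chain, at 780, 2362 and 598 CPM from day 2 on. Cd74, the invariant chain that escorts class II molecules, was at 6318, 10346 and 3923 CPM. Ciita, the class II transactivator, had 12, 30 and 4 UMIs, with ratios of 1.06 (0.10 to 2.09) and -0.63 (-2.44 to 0.83).

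The promoters of H2-Aa and H2-Eb1 are shown because they hold the Y box CTGATTGG, searched on both strands, an element of class II promoters that binds the factor NF-Y. Windows ran from 250 bases before to 50 after the RefSeq start in GRCm38.p6. Of the 4 class II genes with a window, these 2 (50%) held it, against 4.70% of 27025 genes, and the match, in capitals, is a description only. The 150 bases before the start are printed, which for H2-Aa are chr17:34287824-34287973 on the minus strand and for H2-Eb1 chr17:34305717-34305866 on the plus strand, both 5′ to 3′.
H2-Aa: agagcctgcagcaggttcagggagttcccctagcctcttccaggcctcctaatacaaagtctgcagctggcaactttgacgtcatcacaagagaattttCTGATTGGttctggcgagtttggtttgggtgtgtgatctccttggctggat
H2-Eb1: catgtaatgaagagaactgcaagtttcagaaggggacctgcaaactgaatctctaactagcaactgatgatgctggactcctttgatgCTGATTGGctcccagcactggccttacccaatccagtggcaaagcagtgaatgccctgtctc
The match begins 51 bases before the start of H2-Aa and 62 bases before that of H2-Eb1.

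Class II RNA in cells of other types moved with these values. In T cells, which should lack the genes, H2-Ab1 was at 153, 1458 and 533 CPM at day 2, day 7 and reversal, and over the 7 genes the T cell median log2 ratio was 3.07 for day 7 against day 2 and -1.45 for reversal against day 7. Endothelial cells gave 3.06 and -1.48. The part of free RNA in the members' sums was not tested, and single members were set beside T cells of the same library. H2-Aa, H2-Ab1, H2-Eb1 and Cd74 together took a median of 0.166%, 0.123%, 0.784% and 0.376% of a member's UMIs in the order sham, day 2, day 7 and reversed. The T cell medians were 0.0061%, 0.0656%, 0.538% and 0.201%. Shares above the highest T cell of the library (0.0786%, 0.538%, 0.950% and 0.781%) were found in 3 of 5 sham members. Among sham members with at least 15 Lyz2 UMIs they were found in 1 of 3. At day 2 they were found in 27.8% of members (18.9 to 38.2). At day 7 the figure was 44.2% (35.8 to 52.9) and after reversal 30% (14.7 to 49.4). These 3 intervals overlapped, and the highest T cell was taken over 21, 58, 51 and 118 cells, numbers that themselves move a maximum. Among C1q-high macrophages the same figure was 59.5%, 89.4% and 96.4% from day 2 on. Their list median for day 7 against day 2 was 2.03, with 7 of 7 genes at least 2-fold higher. That of Cd209a dendritic cells was -0.004, with 0 of 7, against 1.06 and 4 of 7 in the members. For reversal against day 7 the median of C1q-high macrophages was 0.09, and that of Cd209a dendritic cells 0.16, against -1.40 in the members.

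**Figure D4:**
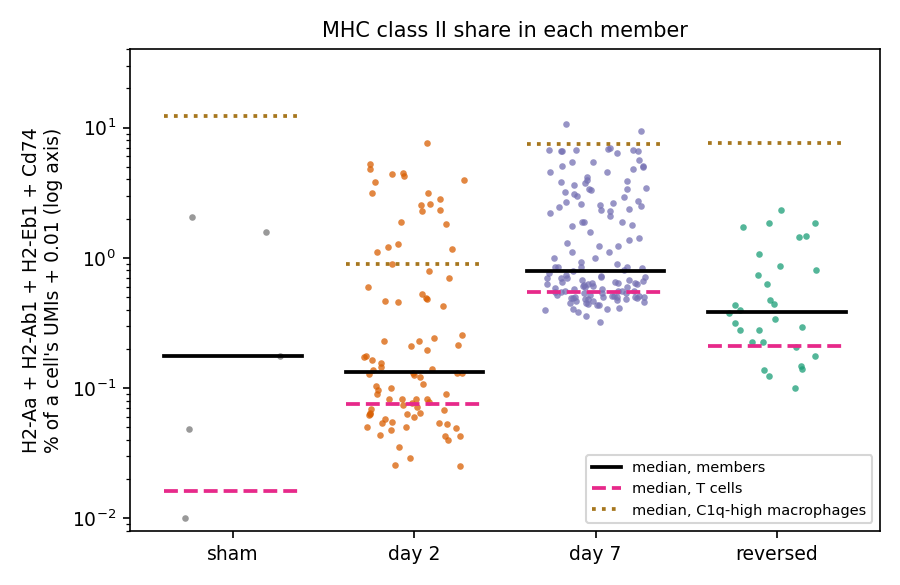
Percentage of each member's UMIs that came from H2-Aa, H2-Ab1, H2-Eb1 and Cd74, plus 0.01, on a log axis and by library. Points are cells, solid lines member medians, dashed lines T cell medians and dotted lines C1q-high macrophage medians; the lower quartile of members, 0.0549%, 0.529% and 0.214% from day 2 on, lies close to the T cell medians of 0.0656%, 0.538% and 0.201%.

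The members of 1 library differed among themselves along this axis. When the members with at least 15 Lyz2 UMIs were ordered by class II share and divided at the median, a division chosen after the data had been seen, each group held 42 cells at day 2, 56 at day 7 and 13 after reversal. The dividing shares were 0.131%, 0.833% and 0.403%, and 17, 38 and 8 cells lay within 1.5-fold of them, so the groups are ranges and not types. The intervals here are for counting error and leave out the spread between cells, so none of them is a test of a difference. Some monocyte genes were lower in the upper group in all 3 libraries, and others were not. Lyz2 was lower there by -0.60, -0.43 and -0.18 on the log2 scale at day 2, day 7 and reversal, with all 3 intervals below 0. Chil3 differed by -1.59 on the log2 scale at day 2, -1.35 at day 7 and -1.16 after reversal. F13a1 differed by -1.44, -2.30 and -1.02, and Vcan by -0.92, -1.55 and -2.38. S100a8, a calcium-binding alarmin, differed by -2.31, -1.55 and -2.27, but 166 of the 271 UMIs of the lower group at day 7 lay in 1 member, and without it the day 7 value was -0.21 (-0.62 to 0.20). For F13a1 at day 7, this was 158 CPM in the upper against 780 CPM in the lower group. Fn1, which encodes fibronectin, and Mgst1, a microsomal glutathione transferase, were lower as well, at -1.07, -1.69 and -1.36 and at -1.93, -1.35 and -1.21. For each gene, the values were taken again without the single member with the highest count of it, an alternative added after the data had been seen. Lyz2, Chil3, Fn1 and Mgst1 then kept intervals below 0 in all 3 libraries. F13a1 and Vcan did so at day 2 and day 7, but after reversal F13a1 was at -0.56 (-1.35 to 0.23) and Vcan at -1.60 (-4.02 to 0.42). Hp stood at -1.10, -1.21 and -0.44, and its interval after reversal (-0.92 to 0.03) took in 0. Ms4a4c stood at 0.22, -0.11 and 0.14, with intervals that took in 0 in all 3. Il1b, the inflammatory cytokine, was higher in the upper group by 0.80, 0.33 and 1.36, and by 0.53, 0.01 and 0.75 without the single member with the highest count. Cx3cr1, the fractalkine receptor, stood at 0.62 and 0.82 at day 2 and day 7, and at 0.58 after reversal with an interval that took in 0 (-0.23 to 1.43). Its values without the member with the highest count were 0.80, 0.75 and 0.15. Ccr2 stood at -0.09, 0.02 and 0.76, and Cd209a was at 0 in both groups by the rule. Apoe, a lipid carrier of macrophages, stood at -0.31, 0.91 and 1.18. Without the single member with the highest count these were -0.15 (-0.30 to 0.01), 0.84 and 1.12. The C1q chains were capped by the selection rule and are not compared between these groups. Whether mixed droplets had a part in these differences was not tested.

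Of 21 interferon-response genes compared, 20 were higher at day 7 than at day 2, 10 of them at least 2-fold, and 1, Cxcl10, was at least 2-fold lower, against 8.98% higher and 2.08% lower over all genes. The count of 10 became 6 in the cells without other lists and 7 with TMM scaling, where Ifit1, Rsad2 and Gbp2 were under 2-fold. It was 14 with equal weight per cell, 12 after thinning to 2000 UMIs and 11 with the highest doublet scores removed. The list median was 1.00, or 0.84 with TMM scaling, against 0.12 over all genes. Ifi27l2a, an interferon-induced mitochondrial protein, was at 1986 CPM in sham, 899 at day 2, 2747 at day 7 and 3059 after reversal. Its log2 ratio for day 7 against day 2 was 1.61 (1.49 to 1.73). Bst2, tetherin, which holds budding virus particles at the cell surface, was at 198, 479 and 179 CPM from day 2 on, with ratios of 1.27 (1.00 to 1.55) and -1.41 (-1.97 to -0.90). Isg15, a ubiquitin-like modifier, was at 162, 295 and 223 CPM with a ratio of 0.86 (0.55 to 1.18) at day 7. Iigp1, an interferon-inducible GTPase, had 7, 47 and 1 UMIs, but 24 of the 47 lay in 1 day 7 member, and its ratio at day 7 was 2.41 in all members and 1.02 without other lists. After reversal the interferon list was mixed, with 1 gene at least 2-fold higher and 4 lower, against 3.56% and 6.56% over all genes, and a median of -0.17. Ifit1, an RNA-binding antiviral protein, was at 32.9, 68.2 and 196 CPM from day 2 on, with 24 of its 36 UMIs after reversal in 1 member.

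Other cells of the same libraries showed it too. Over the same 21 genes the median log2 ratio for day 7 against day 2 was 1.43 in C1q-high macrophages, 1.40 in Cd209a dendritic cells, 1.35 in T cells and 0.78 in endothelium. For Isg15 at equal depth, 14.4% of day 2 members (7.92 to 23.4) and 27.5% of day 7 members (20.3 to 35.8) had a UMI, against 6.90% and 17.6% of T cells and 22.6% and 42.1% of endothelial cells. Unthinned member shares were 30% and 48.6%.

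The same stretches of Ifit1 and Isg15 are shown as promoters of this list that hold GAAA, any 2 bases and GAAA again, a form of the interferon-stimulated response element, searched on both strands. It was found in 9 of 15 interferon genes with a window (60%), against 3.99% of 27025 genes, with overlapping matches counted as 1 gene. This share describes the genes of the list only and carries no finding about the members. Capitals mark the matches, which in Ifit1 read on the other strand. The Ifit1 bases are chr19:34640739-34640888 on the plus strand and the Isg15 bases chr4:156200819-156200968 on the minus strand, from RefSeq on GRCm38.p6.
Ifit1: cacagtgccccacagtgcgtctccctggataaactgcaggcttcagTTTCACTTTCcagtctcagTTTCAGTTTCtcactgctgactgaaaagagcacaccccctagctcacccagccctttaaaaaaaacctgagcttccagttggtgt
Isg15: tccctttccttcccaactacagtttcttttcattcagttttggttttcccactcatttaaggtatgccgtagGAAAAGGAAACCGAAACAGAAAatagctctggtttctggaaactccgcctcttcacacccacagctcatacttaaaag
The first match begins 104 bases before the start of Ifit1, and that of Isg15 begins 78 bases before.

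Most chemokine transcripts of the members, 11 of 14, were lower at day 7 than at day 2. Of the 14 genes, 0 were at least 2-fold higher and 7 at least 2-fold lower, namely Ccl2, Ccl3, Ccl4, Ccl24, Cxcl2, Cxcl9 and Cxcl10, against 8.98% higher and 2.08% lower over all genes, and the list median was -1.09. In members with at least 15 Lyz2 UMIs and in those without other lists 1 gene, Ccl5, was at least 2-fold higher. With equal weight per cell, and with at least 10 UMIs of Ly6c2 plus Plac8, 1 gene was higher as well. After thinning to 2000 UMIs 2 were higher and 6 lower, with a median of -0.70. Over the same 14 genes the median was -0.67 in C1q-high macrophages, with 3 higher and 5 lower. It was 1.00 in Cd209a dendritic cells, 2.22 in T cells and 1.72 in endothelium. In those sets 7, 9 and 9 genes were at least 2-fold higher and 1, 1 and 2 lower. Ccl2, the main ligand of Ccr2 (chr11:82035571-82037453), was at 0 in sham, 557 CPM at day 2, 63.7 at day 7 and 38.0 after reversal. Its ratio for day 7 against day 2 was -3.11 (-3.53 to -2.71), and -2.79 in the cells without other lists. At 2000 UMIs per cell, 23.3% of day 2 members (15.1 to 33.4) had a Ccl2 UMI, against 4.35% at day 7 (1.61 to 9.22) and 6.67% after reversal (0.818 to 22.1). T cells showed 1.72%, 7.84% and 1.69%, and endothelial cells 6.60%, 6.21% and 1.20%, so the day 7 share was at or below background, and the reversed interval reached across it. The unthinned member shares were 33.3%, 13.8% and 16.7%. Cxcl2, a neutrophil attractant (chr5:90903871-90905938), was at 0, 838, 184 and 1157 CPM. Its ratio was -2.18 (-2.44 to -1.93) at day 7 and 2.64 (2.34 to 2.95) after reversal, where 97 of 213 UMIs came from 1 member. At equal depth 28.9% of day 2 members (19.8 to 39.4), 12.3% at day 7 (7.34 to 19.0) and 20% after reversal (7.71 to 38.6) had a Cxcl2 UMI, and the latter pair of intervals overlapped. T cells showed 5.17%, 11.8% and 7.63%, and endothelial cells 8.49%, 8.97% and 2.40%, so the day 7 share was close to background. Unthinned member shares were 45.6%, 21.01% and 36.7%. Ccl3, a ligand of Ccr1, was at 383, 126 and 456 CPM from day 2 on, with ratios of -1.59 (-1.92 to -1.28) and 1.85 (1.42 to 2.27). Ccl4, its close relative, was at 907, 333 and 386 CPM. Ccl6 and Ccl9, which monocytes express widely, were at 993, 832 and 929 CPM and at 872, 686 and 701 CPM.

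After reversal the chemokines went both ways. Of 11 genes, 2 (Ccl3 and Cxcl2) were at least 2-fold higher and 4 (Ccl7, Ccl12, Cxcl10 and Cxcl16) at least 2-fold lower than at day 7, against 3.56% and 6.56% over all genes, with a median of -0.46. The 4 lower genes became 5 with 15 Lyz2 UMIs and 6 without other lists, where Ccl5 and Ccl2 were added. Ccl5, a chemokine also abundant in T cells, was at 282, 478 and 348 CPM from day 2 on, with 116 of 214 UMIs at day 2 and 48 of 64 after reversal in 1 member each. T cells held 5658, 2146 and 3018 CPM. Its ratios were 0.76 and -0.46 in all members, 1.37 and -1.55 with 15 Lyz2 UMIs, and 1.45 and -1.42 without other lists. Ccl12, another Ccr2 ligand, was at 124 CPM at day 2, 140 at day 7 and 5.43 after reversal, where it had 1 UMI and a ratio of -4.45 (-6.96 to -2.14). At equal depth Ccl12 was seen in 11.1% of day 2 members (5.46 to 19.5), 18.8% at day 7 (12.7 to 26.4) and 0 of 30 after reversal, whose exact interval reaches 11.6%. T cells showed 0%, 11.8% and 1.69%, and endothelial cells 0.943%, 11.7% and 1.20%, so the background was lower after reversal as well, and its part in the ratio was not tested. The unthinned member shares were 17.8%, 41.3% and 3.33%. Cxcl10 and Ccl7 were at 0 in 30 reversed members, against 49 and 34 UMIs at day 7. With 3 UMIs over the library in place of 0 they were at least 3.42-fold and 2.37-fold lower, while the upper ends of their counting intervals, on the log2 scale, were -1.38 and -0.84, the latter under 2-fold. In T cells the same 11 genes had a median ratio of -1.76, and in C1q-high macrophages 0.32.

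For the lists from here on, the shares of all genes are 8.98% higher and 2.08% lower at day 7, and 3.56% higher and 6.56% lower after reversal. Of 14 inflammatory mediators, 0 were at least 2-fold higher and 2 (Clec4d and Thbs1) lower at day 7, and 4 were higher and 0 lower after reversal, with medians of -0.17 and 0.52. After thinning to 2000 UMIs the reversal median was 0.10, with 2 genes higher and 3 lower. The 4 higher in all UMIs were Il1rn, Nlrp3, Ptgs2 and Clec4d. Over the same 14 genes the reversal median was 0.70 in C1q-high macrophages, with 3 higher and 2 lower. It was -0.27 in Cd209a dendritic cells, -0.35 in T cells and -0.42 in endothelium. Il1rn, which blocks the interleukin 1 receptor, was at 73.7, 42.1 and 120 CPM from day 2 on, with a ratio of 1.48 (0.66 to 2.27) after reversal. Nlrp3, the sensor of an inflammasome, was at 35.6, 19.3 and 81.5 CPM, a ratio of 2.02 (0.94 to 3.07). Ptgs2, an inducible prostaglandin synthase, was at 31.6, 53.4 and 141 CPM, a ratio of 1.39 (0.64 to 2.10). Of their reversed UMIs, 1 member held 8 of 15 for Nlrp3 and 15 of 26 for Ptgs2. Il1b, the product that the inflammasome matures, was at 444, 740 and 755 CPM, with ratios of 0.74 (0.55 to 0.93) and 0.03 (-0.25 to 0.29), the latter -0.55 without other lists. At equal depth 37.8%, 38.4% and 36.7% of members had an Il1b UMI, against 1.72%, 9.80% and 5.93% of T cells and 4.72%, 11.7% and 5.20% of endothelial cells, and 56.7%, 60.9% and 50% of members unthinned. Thbs1, thrombospondin 1, was at 178, 62.5 and 32.6 CPM. Il10 was at 0 in all 4 libraries and Il6 at 0, 5, 3 and 1 UMIs.

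**Figure D5:**
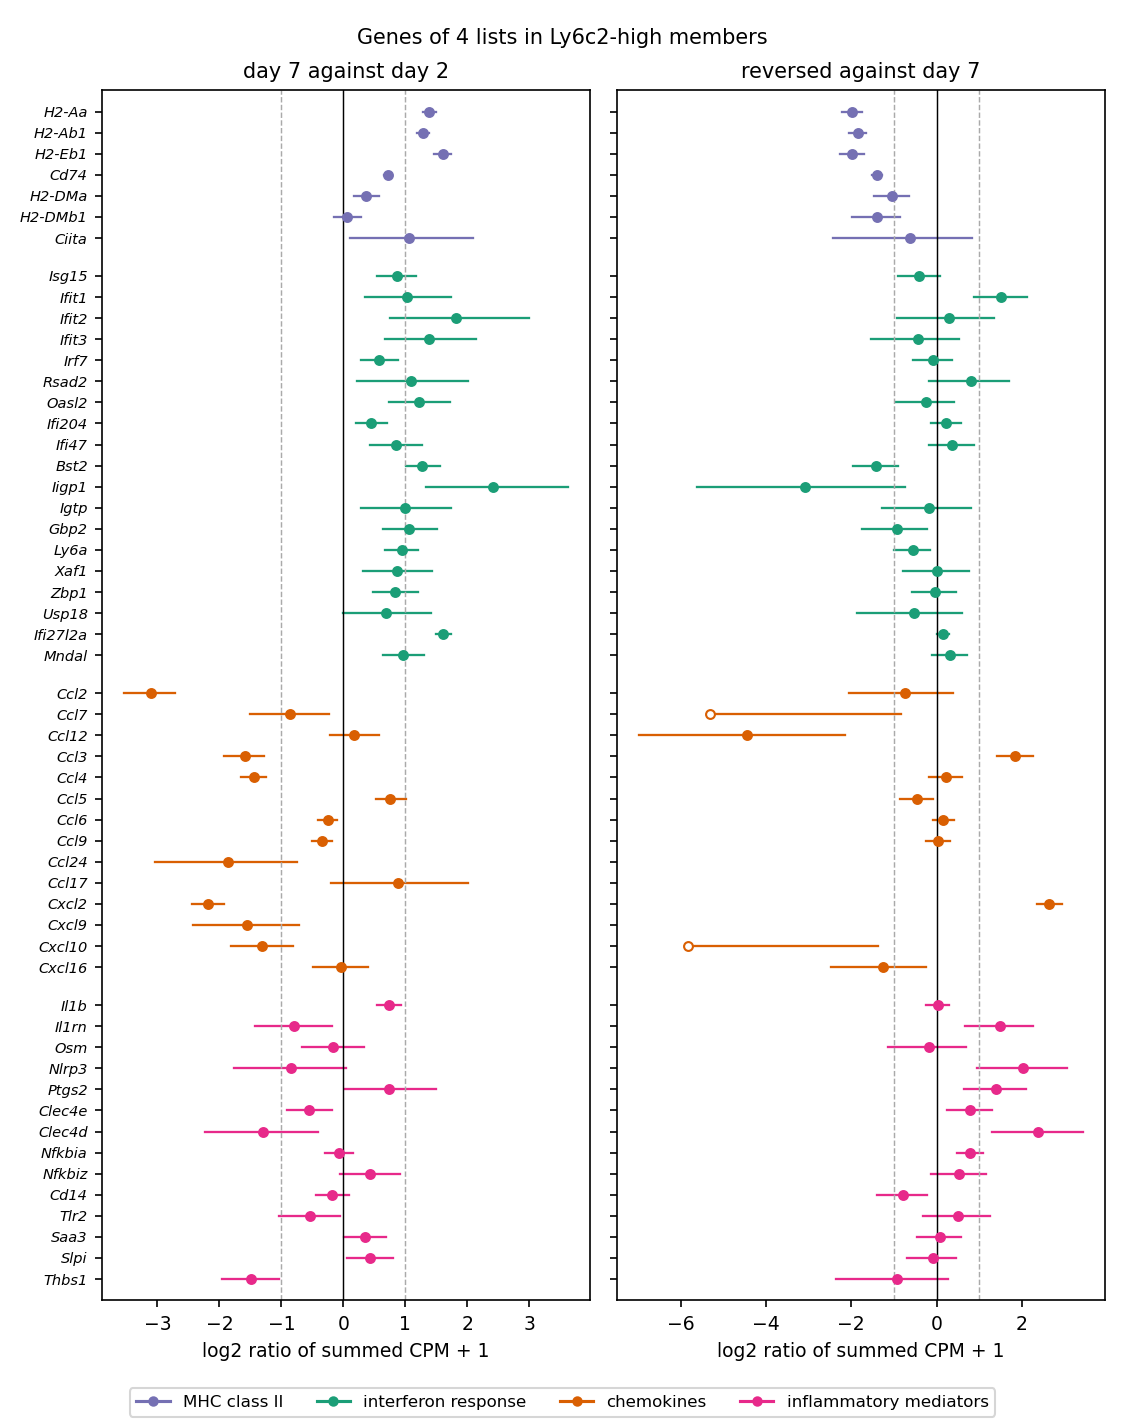
Log2 ratios of summed CPM + 1 in members for day 7 against day 2 (left) and reversed against day 7 (right), for genes of 4 lists, not all of them drawn, with at least 30 UMIs in the pair. Points are ratios, bars 95% conditional binomial intervals for counting error, dashed lines 2-fold, and open points mark genes at 0 in a library, whose ratio is no bound; class II genes lie right of 0 on the left and left of 0 on the right.

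Of 13 trafficking receptors, 0 were at least 2-fold higher and 2, Ccr1 and Cxcr4, lower at day 7 than at day 2, and 1 (Cxcr4) was higher and 1 (Ccr1) lower after reversal, close to the 3.56% and 6.56% of all genes. Ccr1, a receptor for Ccl3 and related chemokines, was at 254, 115 and 54.3 CPM from day 2 on, with ratios of -1.14 (-1.50 to -0.79) and -1.07 (-2.14 to -0.14). Cxcr4, the marrow retention receptor, had 32, 18 and 12 UMIs, and its ratio at day 7 was -1.01 (-1.88 to -0.16) but 0.58 after thinning to 2000 UMIs. Itga4, an integrin chain that binds endothelial Vcam1, stood at 73.7, 142 and 245 CPM.

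Genes of patrolling, Ace-positive monocytes, the Ly6C-low subset that Ly6C-high cells can give rise to, were compared in both pairs. At day 7, 2 of 9 (Ace and Spn) were at least 2-fold higher than at day 2 and 0 lower, against 8.98% and 2.08% of all genes, with a median of 0.45. Spn, the sialoglycoprotein CD43, stood at the 2-fold limit, with a ratio of 1.00 (0.06 to 1.99) that was 0.85 with TMM scaling and turned to -0.41 after thinning. After reversal 3 of 10 (Treml4, Pglyrp1 and Ear2) were at least 2-fold higher than at day 7 and 0 lower, against 3.56% and 6.56%, with a median of 0.63. Treml4, a receptor of that subset, had 31, 19 and 12 UMIs from day 2 on, or 40.8, 21.6 and 65.2 CPM, and a ratio of 1.55 (0.41 to 2.63) after reversal. It was seen in 16.7% of reversed members at equal depth (5.64 to 34.7), against 3.62% at day 7 (1.19 to 8.25), with 0 of 118 T cells and 0 of 250 endothelial cells. Unthinned shares were 33.3% and 10.1%. Nr4a1, a transcription factor that this subset needs, was at 128, 191 and 304 CPM. Cx3cr1 was at 176, 199 and 299 CPM. Cells gated as Ace-positive monocytes numbered 6, 37, 45 and 30 in the order sham, day 2, day 7 and reversed. The 9 genes at day 7 had medians of 1.12 in Cd209a dendritic cells, 0.95 in T cells and 1.54 in endothelium. In those sets 5, 4 and 5 genes were at least 2-fold higher and 0, 2 and 1 lower. C1q-high macrophages gave -0.03, with 2 higher and 1 lower. For reversal the 10 genes gave 0.35 in C1q-high macrophages, 0.14 in Cd209a dendritic cells, -0.16 in T cells and -0.45 in endothelium. The part of free RNA was not tested.

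Of 8 granule genes compared, 1 (S100a9) was at least 2-fold higher and 1 (Wfdc21) lower at day 7, against 8.98% and 2.08% of all genes, and 3 (S100a8, S100a9 and Cstb) were higher and 2 (Lcn2 and Wfdc21) lower after reversal, against 3.56% and 6.56%. S100a8 was at 0 in sham and at 328, 442 and 1081 CPM from day 2 on, with ratios of 0.43 (0.20 to 0.67) and 1.29 (1.03 to 1.54). Its partner S100a9 was at 46.1, 144 and 440 CPM. These are also neutrophil genes, and single members held 166 of 389 S100a8 UMIs at day 7 and 66 of 199 after reversal. At equal depth the share of members with an S100a8 UMI was 32.2%, 30.4% and 26.7%, against 12.1%, 15.7% and 4.24% of T cells and 15.1%, 25.5% and 4.80% of endothelial cells. At day 7 the intervals of members (22.9 to 38.8) and endothelial cells (18.6 to 33.4) overlapped. Unthinned member shares were 68.9%, 58.0% and 36.7%. Lcn2, lipocalin 2, an iron-siderophore carrier also made by injured tubules, was at 119, 84.1 and 5.43 CPM, with 1 UMI in 30 reversed members and a ratio of -3.73 (-6.24 to -1.40). At equal depth 21.1%, 16.7% and 0% of members had an Lcn2 UMI, the last with an interval that reaches 11.6%, against 17.9%, 11.7% and 6.40% of endothelial cells and 13.8%, 3.92% and 2.54% of T cells. The member intervals at day 2 (13.2 to 31.0) and day 7 (10.9 to 24.0) overlapped those of endothelial cells, and the background was lower after reversal too. Unthinned member shares were 54.4%, 34.1% and 3.33%. Wfdc21 had 101, 30 and 0 UMIs. Mmp8, a collagenase, was at 129, 94.4 and 92.4 CPM.

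Macrophage maturation genes passed 2-fold in 3 of 15 cases at day 7, all higher (Mrc1, Cd81 and Axl), against 8.98% of all genes, with a median of 0.17. Axl, a receptor kinase, stood at 1.098, and was under 2-fold with TMM scaling (0.94), with 15 Lyz2 UMIs (0.94) and without other lists (0.98). After reversal 1 of 15, Cd72, was lower, close to the 6.56% of all genes. Mrc1, the mannose receptor, had 3, 29 and 6 UMIs. At equal depth 3.62% of day 7 members had it (1.19 to 8.25), against 3.92% of T cells and 2.07% of endothelial cells, and 13.8% unthinned. Apoe was at 2023, 3647 and 3662 CPM, and T cells had 116, 2115 and 773 CPM. In C1q-high macrophages Apoe was at 3917, 13141 and 21055 CPM, and members were below them in all 3 libraries.

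Beyond the lists, the largest differences named by rank were led by genes of stroma, T cells and endothelium. Mitochondrial, ribosomal protein and haemoglobin genes were left out of this ranking. The 12 largest increases at day 7 were Col3a1, Col1a2, Mgp, Bgn, Sparc, Thy1, Cd3g, Cd3d, Sfrp1, Trbc2, Plvap and Serpinh1. Col3a1, a fibrillar collagen, had 0 UMIs at day 2 and 458 at day 7, at least 132-fold higher when 3 UMIs stand for 0, with a counting interval that begins at 6.47 on the log2 scale, and 239 of the 458 lay in 1 member. Its day 7 level was 521 CPM in all members and 37.6 CPM in those with at least 15 Lyz2 UMIs. The 12 largest decreases were Ccl2, S100g, AA467197, Lyz1, Nt5dc2, Phlda1, Gpx3, Slc34a1, C5ar1, Guca2b, Spink1 and Cxcl2. S100g, Gpx3 and Slc34a1 are tubule genes, and a single day 2 member held 194 of 239 S100g UMIs. C5ar1, the receptor for complement fragment C5a, was at 337 CPM at day 2 and 59.1 at day 7, a ratio of -2.49 (-2.94 to -2.06), and -2.10 without other lists. Spp1, osteopontin, was at 5587, 1294 and 505 CPM from day 2 on, with 2655 of 4243 day 2 UMIs in 1 member, and its ratio at day 7 was -2.11 in all members, -0.68 with 15 Lyz2 UMIs, which is under 2-fold, and -1.17 without other lists. T cells held 9555, 6759 and 810 CPM of Spp1.

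After reversal the 12 largest increases included Miox, Lyz1, Slc34a1, Irg1, Slc7a11, Tmem27, Ttc36, Gpx3, Spink1, Cxcl2 and Hrsp12. Of these, Miox, Slc34a1 and Gpx3 belong to the proximal tubule list, whose sum in the members was 523 CPM at day 7 and 3439 CPM after reversal; the part of tubule RNA was not tested. Lyz1, a second lysozyme gene and close copy of Lyz2, was at 116, 15.9 and 245 CPM from day 2 on, with 24 of 45 reversed UMIs in 1 member and a ratio of 3.86 (3.00 to 4.78). At equal depth 7.78% of day 2 members (3.18 to 15.4), 5.07% at day 7 (2.06 to 10.2) and 13.3% after reversal (3.76 to 30.7) had a Lyz1 UMI. These intervals overlapped. T cells showed 0%, 1.96% and 1.69%, endothelial cells 0%, 0.690% and 0.8%, and unthinned members 15.6%, 7.97% and 16.7%. Irg1, which makes itaconate in activated macrophages, was at 6.58, 10.2 and 120 CPM, a ratio of 3.42 (2.30 to 4.60). Slc7a11, the cystine transporter, was at 42.1, 17.1 and 147 CPM. The 12 largest decreases were Ifitm1, Thy1, Col3a1, Col1a2, Ccl12, Lcn2, Gpr146, Bgn, Clec4b1, Iigp1, Sfrp1 and Atp6v1g3. Ifitm1, an interferon-induced membrane protein (chr7:140967221-140969825), was at 0, 137, 123 and 0 CPM in the order sham, day 2, day 7 and reversed. With 104, 108 and 0 UMIs from day 2 on, it was at least 7.53-fold lower after reversal than at day 7 when 3 UMIs stand for 0, and the upper end of its counting interval was -2.53 on the log2 scale. At equal depth 22.2% of day 2 members (14.1 to 32.2) and 15.9% of day 7 members (10.3 to 23.1) had an Ifitm1 UMI, against 0 of 30 reversed members, whose exact interval reaches 11.6%. The T cell shares were 3.45%, 7.84% and 0.847%, those of endothelial cells 8.49%, 5.52% and 2%, and the unthinned member shares 42.2%, 31.9% and 0%. In sham, 0 UMIs in 5 members set no useful limit.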

How the data were processed

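Droplet 3′ single-cell libraries of kidney cells were analysed from the matrices of raw UMI counts that the authors deposited, 28692 genes by 5938 (sham), 2739 (day 2), 4504 (day 7) and 3695 (reversed) cells. Per the submitters' processing notes, Cell Ranger, STAR and the GRCm38/mm10 build are named; cell calling and versions are not given in the sources used here. A plate-based sample was not used here. A clause of the selection rule and some genes are not reported here.

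Members and lists were chosen with earlier results of these data known. Counts of members were summed per library, scaled to CPM, and compared as log2 ratios with 1 CPM added, for genes with at least 30 UMIs in the pair and libraries with at least 20 members. Because each group was 1 library, no test was run and genes were called by a 2-fold difference alone. Shares have exact Clopper-Pearson intervals, counts exact Poisson intervals and ratios exact conditional binomial intervals, each at 95% and for counting error only. For equal depth, cells were thinned to 2000 UMIs. Genes named were those of the lists, the 12 largest increases and decreases with at least 50 CPM and a UMI in at least 10% of members of the higher library, leaving out genes of the selection rule and mitochondrial, ribosomal protein and haemoglobin genes, and the 15 genes that marked members most. Doublets were left in; Scrublet's automatic threshold marked 6, 8, 2 and 25 cells and was judged not to have worked, so removal of the highest scores, at 0.8% per 1000 cells, was an alternative. The scripts were tested on simulated data. Alternatives were TMM scaling, a 10 CPM pseudocount, equal weight per cell, thinning, doublet removal, other count and mitochondrial limits and no filter on low counts. Subsets by Lyz2 and by other cell lists, the division by class II share and the lists in other cell sets were added once the data were known. TMM factors came from edgeR 4.0.16 in R 4.3.3. All else used scanpy 1.11.5, matplotlib 3.10.9, pandas 2.3.3 and numpy 2.4.6, with scipy 1.17.1 for intervals, under Python 3.11.15.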

Additional observations from a re-analysis of the deposited data

How the results depend on the processing

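No paired analysis was possible because each group was 1 library, and no replicate could be left out. Of 340 counts, shares and list medians under alternatives, 315 kept within a tolerance: 1.5 times the count, the 95% interval of the share, or, for a median, the range between the medians of its genes' lower and upper interval bounds. That range is wide, so a median such as 0.52 that became 0.10 is within it. Of 4032 ratios and shares of single genes, 3539 lay within their own 95% interval. The 493 genes higher at day 7 than at day 2 became 271 with 10 CPM added, 163 after thinning, 312 in members with 15 Lyz2 UMIs, 246 without other lists and 3499 with no filter on low counts. The 114 lower genes became 177 with TMM, 70 with 10 CPM, 63 after thinning and 1352 with no filter. After reversal the 157 higher genes became 100 with 10 CPM, 43 after thinning, 99 without other lists and 1771 with no filter, and the 289 lower genes 181, 152 and 4268 with 10 CPM, thinning and no filter. Thinned and subset counts rest on fewer UMIs. For day 7 against day 2, the median became 1.60 for MHC class II and 0.12 for inflammatory mediators with at least 10 UMIs of Ly6c2 plus Plac8, and -0.52 for matrix and repair with TMM. The chemokine median after reversal was -1.003 without other lists. With a 20% mitochondrial limit the share of kept cells was 0.772% in sham, 5.94% at day 2 and 1.40% after reversal. With 15 Lyz2 UMIs the day 7 share was 2.52% of kept and 3.31% of Tyrobp-positive cells.

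Among genes of the lists or named by rank in either comparison, with at least 30 UMIs in the pair, 4 of 93 at least 2-fold apart at day 7 and 4 of 75 after reversal changed sign under an alternative. Of those under 2-fold, 46 of 148 and 57 of 159 did. For day 7 against day 2, Cxcr4 became 0.58 and Spn -0.41 after thinning, Atp6v1g3 0.17 after thinning and 0.94 with 15 Lyz2 UMIs, and Gzma 1.63 at 10 UMIs, 1.87 with 15 Lyz2 UMIs and 1.57 without other lists. For reversal against day 7, Gzma became -1.67, -1.78 and -1.30 under the same settings, Col1a1 0.86 with 15 Lyz2 UMIs and 1.84 without other lists, Mgp 0.53 and 0.67 under the same pair of settings, and Kdr -0.19 at 10 UMIs. The cause was not tested. Members without any C1q UMI were not compared, since too few were left. With 5 sham members no ratio was taken. With 30 reversed members the counting intervals of low genes were wide, and smaller differences in them could have been missed at this depth.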

Other observations

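Of 16 transcription factors compared between day 7 and day 2, 1 was higher by 2-fold (Klf2) and 2 lower (Cebpa and Bhlhe40), against 8.98% higher and 2.08% lower over all genes. After reversal 1 of 15 was higher (Cebpa) and 0 lower, against 3.56% and 6.56%. Klf2, a factor of leukocyte quiescence and trafficking, was at 255 CPM at day 2, 574 at day 7 and 935 after reversal, with log2 ratios of 1.17 (0.92 to 1.41) and 0.70 (0.44 to 0.95). Cebpa, a factor of myeloid differentiation, had 46, 26 and 17 UMIs, with ratios of -1.01 (-1.74 to -0.30) and 1.61 (0.66 to 2.53). Cebpb, its relative, was at 2441, 1445 and 1885 CPM. Irf8, which directs monocyte and dendritic lineages, was at 250, 428 and 315 CPM, and at 163, 285 and 333 CPM in members with at least 15 Lyz2 UMIs.

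Of 14 immediate-early and heat shock genes, which tissue digestion can induce, 1 was higher (Fosb) and 2 lower (Ier3 and Dusp1) at day 7 than at day 2, with a median of -0.02. After reversal 2 were higher (Egr1 at 1.25 and Ier3 at 1.11) and 0 lower, with a median of 0.53. The same 14 genes had medians of 1.04 in C1q-high macrophages, with 8 higher, and 0.66 in endothelium, with 4 higher. Cd209a dendritic cells gave 0.60 with 1 higher, and T cells -0.23 with 1 higher and 2 lower. Of 15 cytokine and growth factor receptors, 1 was at least 2-fold higher and 0 lower at day 7, and 0 were higher and 2 lower after reversal. Tgfbr2 was higher at day 7 with a ratio of 1.71 (0.74 to 2.78). Il4ra was lower after reversal, with 79 UMIs at day 7 and 5 after reversal and a ratio of -1.69 (-3.25 to -0.44). Of 13 lipid and lysosome genes, 2 were at least 2-fold higher and 0 lower at day 7, and 1 was higher and 1 lower after reversal. Cd9, a tetraspanin, was at 50.04, 76.19 and 283 CPM from day 2 on, a ratio of 1.88 (1.33 to 2.42) after reversal, with 14 of 52 UMIs in 1 member. Ctsl went the other way after reversal, with a ratio of -1.24 (-1.99 to -0.56), or -0.55 with 15 Lyz2 UMIs.

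Cell cycle genes were scarce. Only 4 of 17 and 3 of 17 had enough UMIs to compare, Mki67 was seen at equal depth in 0 of 90, 1 of 138 and 0 of 30 members from day 2 on, and 33 of 37 day 2 UMIs of 2810417H13Rik lay in 1 member. Of 14 and 12 glycolysis and hypoxia genes, 0 passed 2-fold in either comparison, with medians of -0.29 and -0.24, and Gapdh was at 1204, 877 and 587 CPM.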
